A study of Mus musculus with 8 samples.

Results

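This account covers the liver's main apolipoprotein genes and Mttp in hepatocellular carcinoma (HCC) of mice without miR-122. The genes were listed by name as Apoa1, Apoa2, Apoa4, Apoa5, Apob, Apoc1, Apoc2, Apoc3, Apoe and Mttp, and their probes were found through the accession given for each probe on the array. Of the 10 genes, 9 had a named probe (11 probes in all), and these 9 were among the 14311 genes tested. No probe was named Apoc2 through the annotation used, and Apoc2 was not analysed here. Each of the 8 arrays held RNA of 1 HCC from a male miR-122 knockout mouse, labelled with Cy5, and RNA of normal liver from an age-matched male whose miR-122 gene was floxed, labelled with Cy3. Tumor and control mice shared a mixed C57BL/6J and 129S/Svj background. The labels give no age in numbers and do not say in which cells the gene was deleted, whether any tumors shared a mouse, or whether the controls were 8 animals or a pool. The effect of the missing microRNA and that of the tumor cannot be told apart.

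Apolipoproteins are the protein coat of the particles that carry lipid in blood, and the liver secretes most of them. Apob forms the frame of very low density lipoprotein (VLDL), onto which the transfer protein Mttp loads triglyceride inside the hepatocyte. Apoa1 and Apoa2 are the main proteins of high density lipoprotein (HDL), Apoc3 slows and Apoa5 promotes the removal of triglyceride from blood, and Apoe is a ligand by which receptors take particles up. Apoa4 travels on HDL and on particles rich in triglyceride, and its liver RNA is known to respond to fasting and to fat in the liver.

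On the arrays, 40.0% to 53.3% of spots were well above background in the tumor channel and 46.5% to 55.5% in the control channel, and no spot was saturated. Tumor 8 was the dimmest. All 9 genes were well above background in both channels of all 8 arrays. Across genes, the control channels of arrays 1 and 2 correlated at 0.9951, against 0.9765 to 0.9919 for the other pairs. Skeletal muscle RNA was present in the control channel of array 8. The dyes were not swapped, so a dye effect on a probe cannot be told apart from a tumor effect. Precision is limited by there being 8 arrays.

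Of the 9 genes, 8 were lower in tumor and Apoa4 was higher, each at an adjusted p under 0.05 (limma, Benjamini-Hochberg over all genes tested). Ratios are given as log2 of tumor over control, normalized within each array. Of all genes tested, 25.1% were lower and 28.7% were higher by the same rule, 53.8% in either direction. With a change of at least 2-fold also required, Apoa5, Apoc3 and Apoa1 were lower and Apoa4 was higher, beside 5.94% lower and 9.54% higher over all genes (15.5% in either direction). The median log2 ratio of the 9 genes was -0.85, and that of all genes tested was 0.03. On single arrays, 7 to 9 of the 9 genes had a ratio below 0. The share of all genes below 0 on single arrays was not counted. The mean ratio on single arrays was -1.21 to -0.15 for the 9 genes and -0.08 to 0.11 for all genes tested. In bulk tissue, fewer hepatocytes and less RNA per hepatocyte cannot be told apart.

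**Figure D1:**
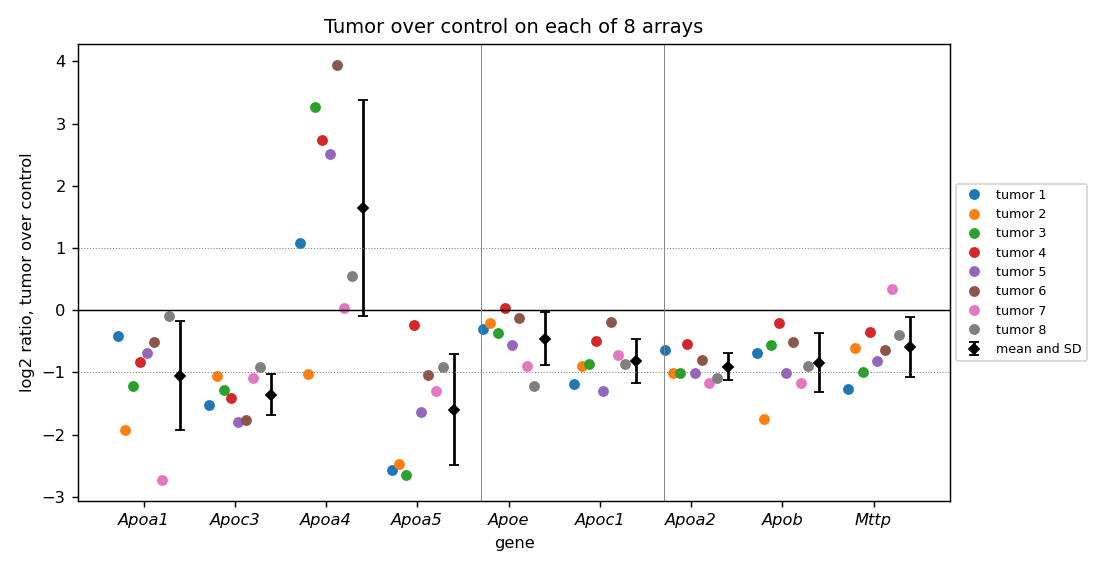
Log2 ratio of tumor over control (y axis) for 9 genes (x axis), with 1 coloured point per tumor and the mean with its SD over 8 arrays in black; dotted lines mark a 2-fold change and vertical lines separate the Apoa1 cluster, the Apoe cluster and the other genes. Apoa4 spans -1.02 to 3.94, while Apoa1, Apoa2, Apoa5, Apob, Apoc1 and Apoc3 stay below 0 on all 8 arrays.

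Apoa1, Apoc3, Apoa4 and Apoa5 lie next to each other in this order on mouse chromosome 9, and Apoa4 rose while the other 3 fell. Apoa1, which takes up cholesterol from cells as a main protein of HDL, had log2 ratios from -2.73 to -0.09 with a median of -0.76. The lowest were tumor 7 (-2.73) and tumor 2 (-1.93), and tumor 8 was close to its control (-0.09). The mean was -1.05 ± 0.88 (SD, n = 8), which is 2.07-fold lower (adjusted p = 0.00898). The mean lay under the 2-fold size without tumor 7 (-0.81) or tumor 2 (-0.92), and under array weights (-0.96). The Apoa1 probe was printed at 10 spots per array, of which 9 or 10 were used, and their ratios had an SD of 0.0512 to 0.240 within an array; these spots share 1 hybridization per array. The spread of Apoa1 lay in the tumor channel, with an SD of 0.76 against 0.20 in the control channel (log2 signal 14.30 to 16.70 and 16.67 to 17.20), and the channels overlapped only through tumor 8.

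Apoc3, an inhibitor of lipoprotein lipase that also slows uptake of particles by the liver, fell in every tumor. Its ratios ranged from -1.79 to -0.90 with a median of -1.35. The signals of the channels did not overlap, with 15.39 to 16.18 in tumors and 16.97 to 17.39 in controls. The share of all genes tested whose channels did not overlap was not counted, for this gene or those below. The mean was -1.36 ± 0.33 (SD, n = 8), 2.56-fold lower, with the smallest adjusted p of the 9 genes (1.85e-05, limma).

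Apoa4 was the gene of the 9 that rose, and it varied most. Its ratios ranged from -1.02 to 3.94 with a median of 1.79. Tumors 6, 3, 4 and 5 had ratios of 3.94, 3.27, 2.73 and 2.50, tumor 1 had 1.08, tumors 8 and 7 had 0.55 and 0.03, and tumor 2 lay below its control. The mean was 1.64 ± 1.73 (SD, n = 8), 3.11-fold higher, above 0 on 7 arrays (adjusted p = 0.0245). The 95% interval of the limma fit ran from 0.46 to 2.81. The result rested on few tumors: the adjusted p was 0.0625 without tumor 3, 0.0607 without tumor 4, 0.0595 without tumor 5 and 0.0584 without tumor 6 (means of 1.40, 1.48, 1.51 and 1.31), and it ranged from 0.00735 to 0.0625 over the 8 tumors left out in turn.

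The control livers contributed to this spread. The control signal of Apoa4 was 15.42 and 15.74 on arrays 1 and 2 and 11.72 to 14.15 on the other 6, a wider range than in the tumors (13.35 to 16.56), and the channels overlapped. Apoa5 and Mttp showed their highest control signals on the same arrays. For Apoa5 these were 13.56 and 13.39, against 11.54 to 12.40 on the others, and for Mttp 13.12 and 12.76, against 11.92 to 12.59. Without arrays 1 and 2, an alternative added once the values were known, the mean ratio of Apoa4 was 2.17 (adjusted p = 0.0124), and with these arrays averaged to 1 sample all 9 genes kept their direction and an adjusted p under 0.05. What set the control livers of arrays 1 and 2 apart was not tested.

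**Figure D2:**
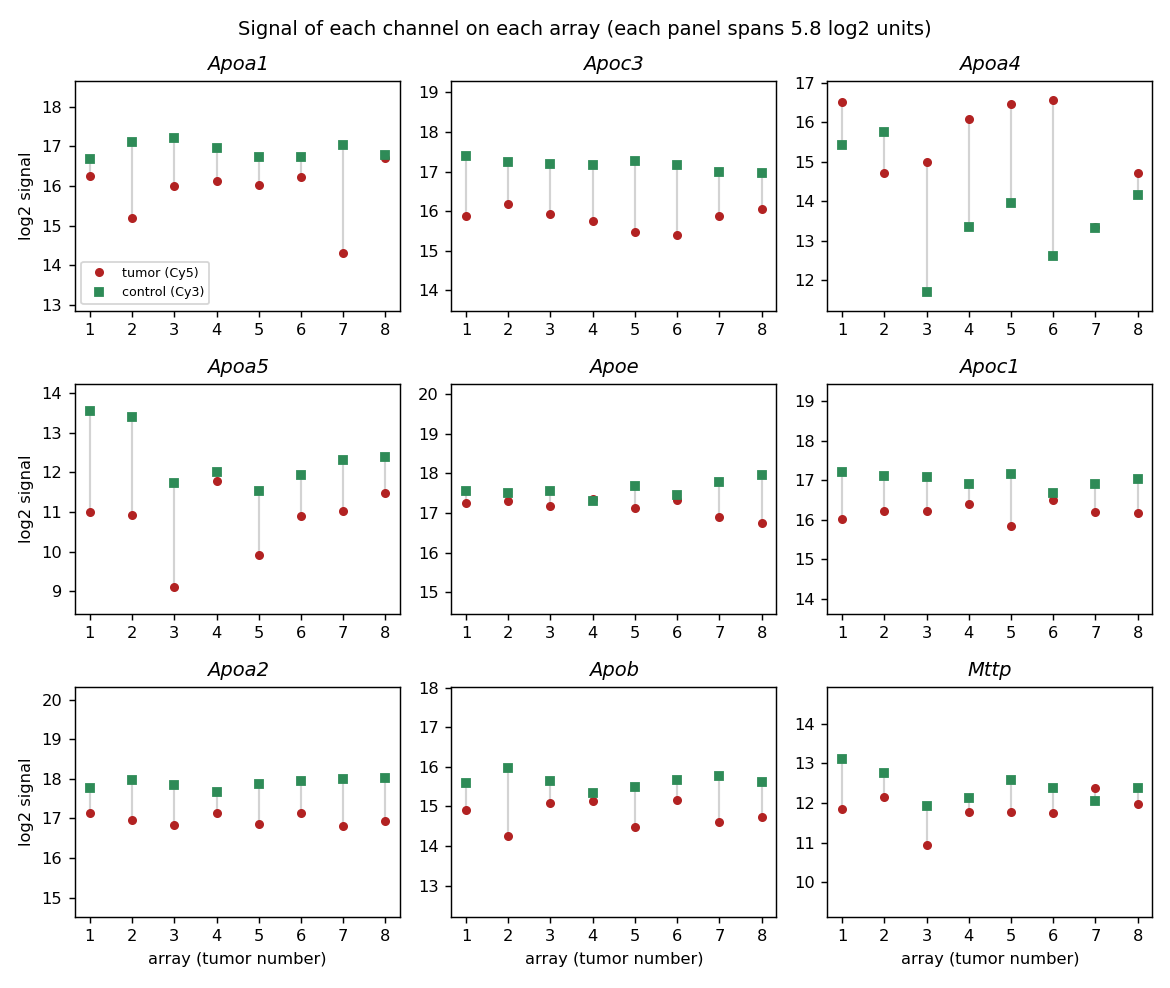
Log2 signal of the tumor channel (red circles) and the control channel (green squares) of each array for 9 genes, with a grey line joining the channels of an array; every panel spans the same range. The control signal of Apoa4 is 15.42 and 15.74 on arrays 1 and 2 and 11.72 to 14.15 on the others, and the tumor signal of Apoa1 is lowest on array 7 (14.30).

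Apoa5, a low-abundance protein that promotes lipolysis by lipoprotein lipase, had the lowest mean of the 9 genes. Its ratios ranged from -2.64 to -0.24 with a median of -1.46. They were lowest in tumors 3, 1 and 2 (-2.64, -2.57 and -2.46) and closest to 0 in tumor 4 (-0.24), and the channels overlapped. The mean was -1.60 ± 0.89 (SD, n = 8), 3.03-fold lower on 8 of 8 arrays (adjusted p = 0.00101). Without arrays 1 and 2, whose controls were high for Apoa5, the mean was -1.29 (adjusted p = 0.00828).

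Within arrays, Apoa4 differed from its neighbours. The ratio of Apoa4 was above that of Apoa5 on 8 of 8 arrays, by 3.23 ± 1.74 on the log2 scale, and Apoc3 minus Apoa4 was -2.99 ± 1.99, below 0 on 8 of 8 arrays. Each gave an exact two-sided sign-flip permutation p of 0.00781, the smallest that 8 arrays allow (0.0156 after adjustment over the 4 pairs compared). Apoa1 and Apoc3 did not differ beyond their spread (difference 0.31 ± 1.05, range -1.63 to 1.26, exact permutation p = 0.406, adjusted 0.406). On array 2 the difference of Apoc3 and Apoa4 was close to 0 (-0.04).

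The promoters of Apoa1, Apoa4 and Apoa5 are shown because these neighbours had ratios of opposite sign. They are RefSeq sequences of assembly GRCm38.p6, each from 250 bases before to 50 bases after the start of transcription, on the plus strand, 5′ to 3′. Capitals mark matches on either strand to CAAAGNNCA, a form of the site bound by the liver factor Hnf4a, to the hexamer AGGTCA, which nuclear receptors bind, and to the TATA box TATAAA. Matches of different motifs did not overlap in these sequences. Other forms of the Hnf4a site were not searched, so a window without a match may still hold one. Whether any match bears on the ratios was not tested.
Apoa1, chr9:46228380-46228679: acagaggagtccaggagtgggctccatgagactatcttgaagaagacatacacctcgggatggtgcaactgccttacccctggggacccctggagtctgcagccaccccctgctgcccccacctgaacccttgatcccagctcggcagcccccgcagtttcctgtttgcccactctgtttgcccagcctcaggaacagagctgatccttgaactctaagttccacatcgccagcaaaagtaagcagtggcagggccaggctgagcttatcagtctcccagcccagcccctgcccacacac
Apoa4, chr9:46240594-46240893: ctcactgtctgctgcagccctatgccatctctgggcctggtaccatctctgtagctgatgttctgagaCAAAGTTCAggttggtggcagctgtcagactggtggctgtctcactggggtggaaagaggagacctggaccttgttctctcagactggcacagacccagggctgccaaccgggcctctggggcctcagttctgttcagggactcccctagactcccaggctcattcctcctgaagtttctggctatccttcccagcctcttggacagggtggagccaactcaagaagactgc
Apoa5, chr9:46268358-46268657: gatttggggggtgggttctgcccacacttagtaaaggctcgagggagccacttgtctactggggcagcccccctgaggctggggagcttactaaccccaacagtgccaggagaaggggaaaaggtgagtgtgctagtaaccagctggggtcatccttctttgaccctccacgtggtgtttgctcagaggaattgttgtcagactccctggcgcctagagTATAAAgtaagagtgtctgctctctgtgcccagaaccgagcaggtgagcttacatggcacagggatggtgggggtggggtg
In these windows, CAAAGNNCA matched in Apoa4, starting 182 bases before the start of transcription, and TATAAA in Apoa5, starting 31 bases before it. Apoa5 has another annotated start, whose window is not shown and in which TATAAA starts 56 bases before that start. Of the 32851 promoters in the table, 6.36% held CAAAGNNCA, 16.3% held AGGTCA and 13.6% held TATAAA on either strand. The promoter of Apob also held a match to CAAAGNNCA, 103 bases before its start. The table had promoters for 8 of the 10 listed genes, without Apoc1 and Apoc3.

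Apoe and Apoc1 lie next to each other on chromosome 7, and both fell. Apoe, made by hepatocytes and macrophages, had the smallest change of the 9 genes. Its ratios ranged from -1.22 in tumor 8 to 0.04 in tumor 4, with a median of -0.34, and its channels overlapped. The mean was -0.45 ± 0.42 (SD, n = 8), 1.37-fold lower on 7 of 8 arrays (adjusted p = 0.0210). The adjusted p was 0.0505 without tumor 7 (0.0163 to 0.0505 over the 8 tumors left out in turn), 0.0578 without tumors 7 and 8 together (mean -0.25) and 0.0542 with median centring in place of loess. The 10 spots of the Apoe probe had an SD of 0.104 to 0.234 within an array.

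Apoc1, which hinders uptake of particles through receptors, had ratios from -1.30 in tumor 5 to -0.19 in tumor 6, with a median of -0.87. Its signals did not overlap between the channels (15.85 to 16.49 in tumors, 16.68 to 17.20 in controls). The mean was -0.81 ± 0.36 (SD, n = 8), 1.76-fold lower on 8 of 8 arrays (adjusted p = 5.18e-04). The difference of Apoe and Apoc1 was 0.36 ± 0.46, above 0 on 6 arrays (exact sign-flip permutation p = 0.0625, adjusted 0.0833). Apoc4, a minor apolipoprotein of the same cluster, also fell: its mean was -2.12 ± 0.52, 4.36-fold lower on 8 of 8 arrays (adjusted p = 1.24e-05, limma).

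Apoa2, the most abundant HDL protein after Apoa1, had the smallest spread of the 9 genes. Its ratios ranged from -1.17 in tumor 7 to -0.54 in tumor 4, with a median of -1.003, and the channels did not overlap (16.82 to 17.13 in tumors, 17.67 to 18.01 in controls). The mean was -0.91 ± 0.22 (SD, n = 8), 1.87-fold lower (adjusted p = 4.60e-05). The other Apoa2 probe gave -0.85 ± 0.34, and the probes differed by at most 0.373 on any array.

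Apob had ratios from -1.74 in tumor 2 to -0.21 in tumor 4, with a median of -0.79. Its channels did not overlap either, with 14.24 to 15.15 in tumors and 15.33 to 15.98 in controls. How common this was among all genes tested was not counted. The mean was -0.85 ± 0.47 (SD, n = 8), 1.80-fold lower (adjusted p = 0.00149), and the other Apob probe gave -0.76 ± 0.48. Mttp had ratios from -1.26 in tumor 1 to 0.34 in tumor 7, with a median of -0.62, and overlapping channels. Its mean of -0.59 ± 0.48 (adjusted p = 0.0106, below 0 on 7 arrays) is 1.51-fold lower. Mttp had an adjusted p of 0.0607 with the processed signals of the scanner software and 0.0576 without arrays 1 and 2. Without arrays 1, 2 and 8 it was 0.0781.

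The other genes of lipoprotein metabolism were taken from 5 lists. Their counts are to be read beside the 25.1% of all genes tested that fell and the 28.7% that rose. Among other apolipoproteins and HDL proteins, 19 were tested, of which 8 fell and 2 rose (median log2 ratio -0.29), beside 53.8% of all genes called in either direction. Pon1, an antioxidant esterase carried on HDL, fell most (-4.50 ± 1.26, 22.6-fold lower, adjusted p = 1.78e-05), followed by Apoc4 and Apon (-1.64 ± 0.80). Apobr, a receptor for Apob48 on macrophages, rose by 1.27 ± 0.70. The other gene that rose was Clu, also known as apolipoprotein J (1.18 ± 0.61). Apom, which carries sphingosine phosphate on HDL, had a ratio of 0.23 ± 0.55 (adjusted p = 0.286).

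Of 21 genes of VLDL assembly and export, 9 fell and 5 rose, beside 25.1% and 28.7% of all genes. The other 7 did not pass the test, and the median of the list was -0.17. A fall of at least 2-fold, seen for 5.94% of all genes tested, was seen for 2 of the 21. They were Bet1, a protein of vesicle fusion (-1.18 ± 0.58), and A1cf, a partner of the enzyme that edits Apob RNA (-1.10 ± 0.59). The editing enzyme itself, Apobec1, had 0.70 ± 0.85 (adjusted p = 0.0467). Sar1b, a GTPase of the coat that exports large lipoproteins, fell by 0.85 ± 0.78, and Dgat1, which makes triglyceride, rose by 0.76 ± 0.42. P4hb, the protein that pairs with Mttp in the transfer complex, had -0.08 ± 0.44 (adjusted p = 0.667). The count that rose was 2 with the processed signals and 1 with median centring.

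Among lipoprotein receptors, 4 of 14 fell and 4 rose, which is near the share of all genes (25.1% and 28.7%), and the median was -0.08. The genes with the largest changes were Sorl1 (1.46 ± 1.34), the endothelial scavenger receptor Stab2 (-1.44 ± 0.58), the fatty acid receptor Cd36 (1.30 ± 1.17) and the VLDL receptor Vldlr (1.18 ± 0.72). Among genes of lipolysis and efflux, 5 of 12 fell and 2 rose, beside 25.1% and 28.7% of all genes, and the median was -0.16. Lpl, lipoprotein lipase, rose by 3.75 ± 0.62. Lipc, the lipase of normal liver, fell by 2.37 ± 0.46, Angptl4, an inhibitor of lipases, by 1.43 ± 1.29, and Lmf1, which helps lipases to fold, by 1.06 ± 0.43.

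Of 28 transcription factors known to act on apolipoprotein genes, 13 fell and 1 rose, beside 25.1% and 28.7% of all genes, and the median was -0.38. The 14 called in either direction are near the 53.8% of all genes. The largest falls were those of Foxa1 (-1.43 ± 1.18), the fasting receptor Ppara (-0.99 ± 0.80), Foxa3 (-0.94 ± 0.47) and the bile acid receptor Nr1h4 (-0.94 ± 0.77). Hnf4a, whose protein binds many apolipoprotein promoters, fell by 0.29 ± 0.30 (adjusted p = 0.0464), and Nr1h2 was the gene that rose (0.38 ± 0.23). Creb3l3, an activator of Apoa4 in fasting, had -0.48 ± 1.00 (adjusted p = 0.206).

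**Figure D3:**
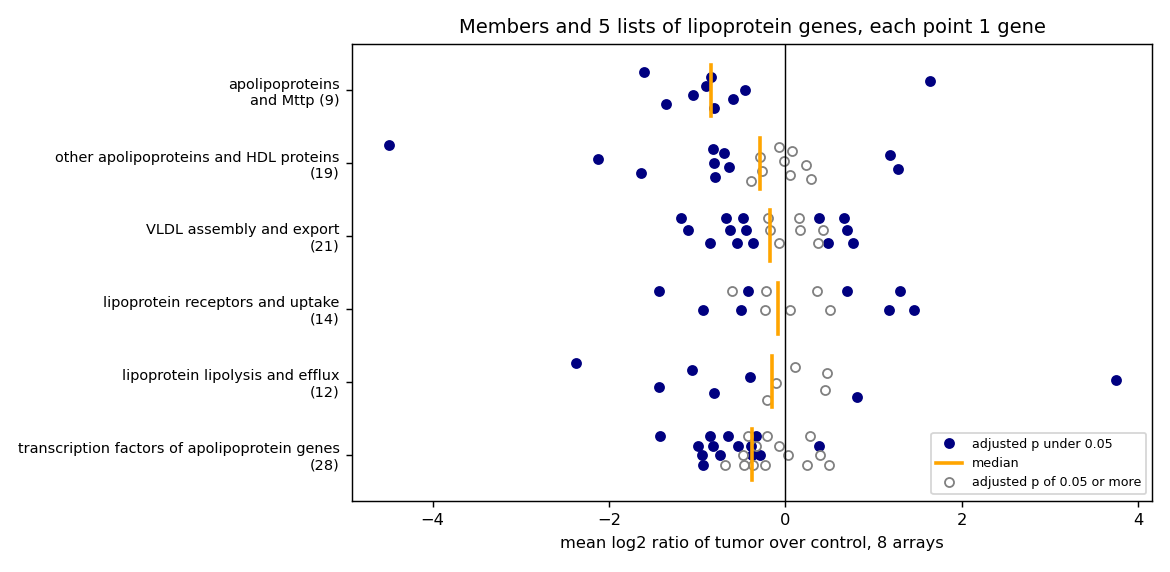
Mean log2 ratio of tumor over control (x axis) for each tested gene of the 9 and of 5 lists of lipoprotein genes (rows, number tested in brackets); filled points have an adjusted p under 0.05 and orange bars mark medians. The 9 genes have a median of -0.85 and the lists have medians from -0.38 to -0.08.

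Markers of cell types were counted as well. Of all genes tested, 25.1% fell and 28.7% rose, 53.8% in either direction, and the marker counts are to be read beside these shares. Of 9 tested hepatocyte markers, 5 fell, the median was -0.59 and the highest ratio was 0.10 (not past the threshold). Their mean log2 signal was 16.22 to 16.73 in tumors and 16.74 to 17.23 in controls, and albumin (Alb) had a ratio of -0.29 ± 1.04 (adjusted p = 0.460). Of 9 macrophage markers, cells that also express Apoe and Apoc1, 5 rose and 2 fell, with mean signals of 9.65 to 11.47 in tumors and 9.30 to 10.17 in controls, and a median ratio of 0.75, while 5 of 5 Kupffer cell markers fell (7.26 to 10.49 against 10.86 to 12.55). Of 8 markers of enterocytes, which also express Apoa1, Apoa4 and Apob, 2 were tested: Vil1 rose by 3.77 ± 1.22 and Fabp2 had -1.12 ± 1.66 (adjusted p = 0.0846). Their mean signal was 10.67 to 13.95 in tumors and 10.13 to 12.21 in controls, and Alpi, Cdx1, Cdx2, Sis, Lct and Rbp2 were not well above background on the 4 arrays needed in either channel.

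The same shares of all genes, 25.1% lower and 28.7% higher, stand beside the counts of the other cell types. Stellate cell markers rose in 4 and fell in 1 of 7 (median 1.45), and bile duct markers rose in 4 of 5 (median 0.95). Of 5 endothelial markers, 2 fell, among them Stab2, and the other 3 did not pass the test, with ratios above 0 (median of the 5, 0.24). Their mean signals were 9.66 to 11.62, 7.55 to 9.55 and 9.02 to 9.88 in tumors, against 9.19 to 10.13, 7.35 to 7.68 and 9.41 to 9.68 in controls. Of 4 tested skeletal muscle markers, 1 fell. Their control signal was 12.55 on array 8 and at most 7.19 on the others. The part of hepatocyte, macrophage and other cells in the ratios of the 9 genes was not tested.

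**Figure D4:**
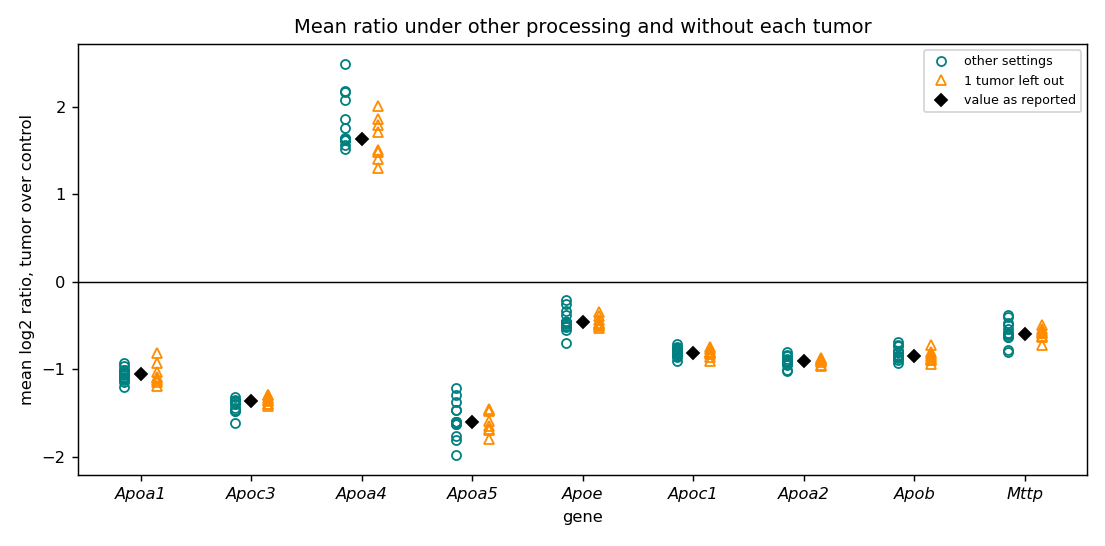
Mean log2 ratio of tumor over control (y axis) of each of 9 genes (x axis) as reported (black), under other processing settings or sets of arrays (circles) and without each tumor in turn (triangles). The sign of each gene is the same in every setting plotted, and Apoa4 has the widest range (1.31 to 2.50).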

How the data were processed

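Median spot signals, local backgrounds and processed signals were taken as deposited, all intensity values; the processed ones had background subtracted and dyes normalized, per the file headers. Log ratios were deposited on the log10 scale, red over green. Spots were read with Agilent Feature Extraction, version 10.9 per the submitters' processing notes and 10.9.1.1 per the file headers. Median signals were corrected with normexp (offset 50) and normalized within arrays by loess (R 4.3.3, limma 3.58.1), with control and outlier spots at weight 0. Channel signals were taken after Aquantile. Of 55681 probes, 26582 got a gene symbol by matching accessions to the RefSeq table of GRCm38.p6. Testing required a signal well above background in 1 channel of 4 or more arrays (29290 probes), and the brightest tested probe stood for a gene. Mean log2 ratios were tested against 0 with limma, adjusted by Benjamini-Hochberg over 14311 genes. "Rose" and "fell" mean an adjusted p under 0.05. Errors are SDs over arrays. Neighbouring genes were compared with an exact sign-flip permutation test; the pair of Apoc1 and Apoc2 was not run. The procedure was checked on simulated data. The genes and lists were chosen with earlier results of these data known. All 9 genes are named; of each list, up to 4 genes with the largest changes that passed, and others, such as P4hb, Apobec1, Hnf4a, Creb3l3, Apom, Nr1h2, Alb, Vil1, Fabp2 and Clu, were chosen after their values were seen. If a control pool was shared, or tumors shared a mouse, p-values cover only the spread between these samples.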

Additional observations from a re-analysis of the deposited data

Results flagged for a closer look

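In the tumor channel, Mttp had a log2 signal of 10.93 in tumor 3, against 11.75 to 12.38 in the other 7 tumors. The gap to the nearest tumor was 0.569 of the whole range, above Dixon's 95% critical value for 8 samples. Of 27 sets of values examined (the ratio and each channel of the 9 genes), this was the only 1 beyond that value, and chance flags about 1 in 20. The control signal of the same array was also the lowest for Mttp (11.92), and its ratio of -0.99 lay within the range of the other tumors.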

How the results depend on the processing

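Each of the 9 genes kept its sign under all alternatives run. In the following cases a limma adjusted p rose above 0.05 or a count of calls moved by over 1.5 times. The cause was not tested, except that some settings use fewer arrays. With processed signals, Mttp had a mean log2 ratio of -0.40, and the genes that rose numbered 2 in VLDL assembly, 1 in lipolysis and 0 among transcription factors. With median centring, Apoe had -0.55, the genes that rose numbered 1 in VLDL assembly and 0 among transcription factors, and 2 receptors fell. The median of all genes was 0.03 after loess, 0.06 with median centring and -0.05 with processed signals. Apoe had -0.25 without tumors 7 and 8 and -0.38 without arrays 1, 2 and 8, where Mttp had -0.49. Mttp had -0.48 without arrays 1 and 2. On row 1 of the slide alone, 0 of the 9 genes rose and 6 fell, against 3433 and 2551 of all genes, with Apoa4 at 1.51, Apob at -0.80 and Apoe at -0.21. On row 2 alone, 0 rose and 4 fell, against 1379 and 1417 of all genes, with Apoa1 at -1.005, Apoa4 at 1.76, Apoc1 at -0.77, Apoe at -0.70 and Mttp at -0.38. Both uses of single rows, and leaving out arrays 1 and 2, were added after the data were seen. With each tumor left out in turn, 0 to 1 of the 9 genes rose, Apoa4 ranged from 1.31 to 2.02, Apoe from -0.53 to -0.35, and the difference of Apoe and Apoc1 from 0.285 to 0.461, with an exact permutation p of 0.0469 without tumor 7 or tumor 8.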

Other observations

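Ratios were compared with those of 11203 other genes that were well above background in both channels of all 8 arrays. Pearson r follows how ratios vary across arrays and takes no account of their mean level. The genes that varied most like Apoa4 were Sbno2 (Pearson r of 0.981), Acsm3 (0.971) and Mmd (0.970). Their mean log2 ratios were 0.57, -0.52 and -1.685, beside 1.64 for Apoa4. For Apoa1 the closest were Nox4 (0.979), Zranb1 (0.971) and Hnmt (0.948). For Apoa5 they were Adar (0.982), Tns2 (0.962) and Vwa8 (0.956). The highest value for Mttp was Mrps21 (0.963), for Apob Nav2 (0.957), for Apoc3 Rabgef1 (0.963), for Apoe Rabl2 (0.970), for Apoa2 Slfn9 (0.951) and for Apoc1 Vax2 (0.916). These are descriptions over 8 arrays, each gene being the closest of many, and the arrays share slide and dyes.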
